A study of Mus musculus with 48 samples.

Results

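Tnfsf11, Tnfrsf11b, Tnfrsf11a, Csf1 and Csf1r are the genes of the 2 ligand and receptor pairs, and of the decoy receptor, through which bone cells direct the formation of osteoclasts, the cells that resorb bone. The 5 genes were taken by symbol from the 55335 gene rows of 4 deposited expression tables, and each was found as 1 row in every table. The tables hold FPKM (fragments per kilobase, relative to the total sequenced in a library), so levels of different genes are compared per length. They cover 27 libraries in 9 groups of 3, all labelled wild type and C57BL/6J.

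The first experiment, with 12 libraries, was on MLO-Y4 cells, a mouse osteocyte-like cell line. The groups were cells given oligomycin A, an inhibitor of the mitochondrial ATP synthase, at 50 µM for 1 h; cells given vehicle (DMSO); other MLO-Y4 cells kept for 2 h in the supernatant of oligomycin A-treated cells; and other MLO-Y4 cells kept for 2 h in the supernatant of vehicle-treated cells. A second experiment gave MLO-Y4 cells 2 µM ADP, a nucleotide that signals through surface receptors, for 2 h or no ADP. Another experiment used fragments of long and parietal bones of 1-month-old mice as recipients of medium in which other bone fragments had been cultured for 24 h, and the recipients were collected after 48 h; its titles call the groups medium transfer and control. Young and old donors are named in the protocol, but no label ties either of them to a group. The last group was femoral and tibial cortical bone of 18-month-old mice with no treatment, for which the protocol states that nonosseous tissue with marrow was harvested too. The treatment label of both vehicle groups also names oligomycin A beside DMSO, and the groups here follow the titles. Nothing in the labels shows if replicates came from different cultures, animals or pools; the spread that the p-values rest on may therefore be technical.

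RANKL, the product of Tnfsf11, is a membrane-bound or shed cytokine that binds RANK, the product of Tnfrsf11a, on osteoclast precursors and drives them to become osteoclasts. Osteoprotegerin (OPG), the product of Tnfrsf11b, is a secreted decoy receptor that binds RANKL and keeps it from RANK, so the balance of RANKL to OPG is a common summary of the support a cell gives to osteoclasts. M-CSF, the product of Csf1, keeps these precursors alive and dividing through its receptor, the product of Csf1r, which is carried by cells of the monocyte lineage. Osteocytes are known as a main source of RANKL in adult bone.

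Tnfsf11 and Csf1 are the 2 members whose levels in MLO-Y4 cells were high enough to be tested, and their promoters are shown for that reason, from 250 bases before to 50 bases after the RefSeq start (GRCm38.p6, minus strand of each gene's chromosome, written 5′ to 3′ along the gene). Tnfsf11 spans chr14:78307994-78308293 and Csf1 spans chr3:107760420-107760719. Capitals mark matches to the letters searched on both strands.
Tnfsf11: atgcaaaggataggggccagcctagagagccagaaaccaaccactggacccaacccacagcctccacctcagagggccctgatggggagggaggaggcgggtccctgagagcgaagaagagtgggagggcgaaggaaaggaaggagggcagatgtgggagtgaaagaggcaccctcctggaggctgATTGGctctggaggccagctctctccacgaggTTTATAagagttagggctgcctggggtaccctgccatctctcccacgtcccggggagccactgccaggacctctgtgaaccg
Csf1: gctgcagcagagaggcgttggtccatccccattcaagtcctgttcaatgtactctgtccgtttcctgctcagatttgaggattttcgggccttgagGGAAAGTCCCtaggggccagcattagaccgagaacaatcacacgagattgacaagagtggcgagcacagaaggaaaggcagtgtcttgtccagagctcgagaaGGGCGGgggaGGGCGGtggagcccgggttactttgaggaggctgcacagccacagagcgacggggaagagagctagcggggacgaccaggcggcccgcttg
The Tnfsf11 promoter held 1 TATAAA, read as TTTATA and starting at position -32 from the start site, and 1 CCAAT, read as ATTGG at position -64. The Csf1 promoter held neither; it held 2 GGGCGG, the first at position -51, and 1 match to an NF-kB consensus, on the other strand at position -154. Of 32851 mouse promoters of the same length, 13.6% held TATAAA, 37.4% CCAAT, 35.7% GGGCGG and 0.411% the same NF-kB consensus. Neither promoter held TGANTCA (AP-1) or TGACGTCA (CRE), which were in 7.81% and 1.79% of all promoters. The promoters were 61.7% GC for Tnfsf11 and 58.7% for Csf1, against a median of 52.7% over all promoters.

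On GRCm38, with the GENCODE M21 annotation, all 5 genes are protein-coding. Tnfsf11 (ENSMUSG00000022015) lies on the minus strand of chromosome 14 from 78277445 to 78308043, and Tnfrsf11b (ENSMUSG00000063727) on the minus strand of chromosome 15 from 54250619 to 54278484. Tnfrsf11a (ENSMUSG00000026321) lies on the plus strand of chromosome 1 from 105780718 to 105847981. Csf1 (ENSMUSG00000014599) lies on the minus strand of chromosome 3 from 107741048 to 107760469, and Csf1r (ENSMUSG00000024621) on the plus strand of chromosome 18 from 61100598 to 61132149. Tnfsf11 and Tnfrsf11b have 1 annotated transcript each, of 2236 and 2818 bases, while Csf1 has 7, Csf1r 6 and Tnfrsf11a 3, so FPKM of the last 3 genes can depend on the isoforms assumed by the authors' tool.

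The cells and libraries were checked against markers. The osteocyte markers Pdpn, Cd44 and Phex averaged at least 1 FPKM in the MLO-Y4 libraries, 3 of 7 on the list, while Sost, the gene of the osteocyte product sclerostin, was listed at 0 in all 18. Of 11 monocyte and macrophage markers, Cd14 (17.0 to 38.8 FPKM) and Cd68 (0.419 to 2.11) averaged at least 1 FPKM, while Adgre1, Itgam and Tyrobp were listed at 0 in all 18. Of 9 osteoclast markers, Ctsk (3.61 to 11.7 FPKM), Mmp9 (5.90 to 8.56) and Itgb3 (1.06 to 1.91) averaged at least 1 FPKM, and Calcr was listed at 0 in all 18. One vehicle library stood apart: the gene AY036118 took 15.0% of its summed FPKM, against 0.117% to 0.254% in the other 11 libraries of that experiment. In young bone, 4 predicted genes (Gm10800, Gm10801, Gm21738 and Gm10718) took 5.67% of the summed FPKM of medium transfer library 2, 64.6% and 88.0% of the other medium transfer libraries and 80.3% to 86.8% of the controls. In old bone, haemoglobin genes took 43.6% to 45.3%.

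In MLO-Y4 cells Csf1 was the highest of the members, Tnfsf11 followed it, OPG transcript was low and the receptors were at trace levels. Csf1 had a median of 123 FPKM over the 18 libraries, with a lowest of 89.9 and a highest of 145, and ranked between 202 and 399 among all genes of a library. Tnfsf11 had a median of 25.5 FPKM (18.9 to 39.1) and ranked between 1117 and 2597. Tnfrsf11b had a median of 0.301 FPKM and lay between 0.163 and 0.445 in every library, so the decoy receptor was below its ligand in all 18. Tnfrsf11a was listed at 0 in 17 of 18 libraries and at 0.0104 FPKM in the other, and Csf1r lay between 0.00969 and 0.230 FPKM.

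Bone fragments had another order. In the 6 young bone libraries Tnfsf11 had a median of 6.87 FPKM (5.71 to 37.1), Tnfrsf11b of 6.39 (4.78 to 38.9) and Csf1 of 5.87 (3.91 to 26.5), so ligand and decoy stood at like levels. The receptor transcripts were present there, Csf1r at a median of 2.95 FPKM (1.99 to 13.0) and Tnfrsf11a at 1.00 (0.460 to 2.50). In old cortical bone Tnfsf11 was listed at 0.105, 0 and 0.0981 FPKM, Tnfrsf11b at 0.596, 1.89 and 0.921, Tnfrsf11a at 0.349, 0.109 and 0.183, Csf1 at 1.64, 1.97 and 2.02 and Csf1r at 4.14, 5.62 and 4.88. Csf1r was thus the highest of the 5 in all 3 old bone libraries, whereas it was below Tnfsf11, Tnfrsf11b and Csf1 in all 6 young bone libraries. The tables may have been normalized separately and no test was made across them. Age, the 48 h of culture and the tissue harvested all differ between the 2 kinds of bone and cannot be told apart, and in bulk tissue fewer cells of a type cannot be told from less RNA per cell.

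**Figure D1:**
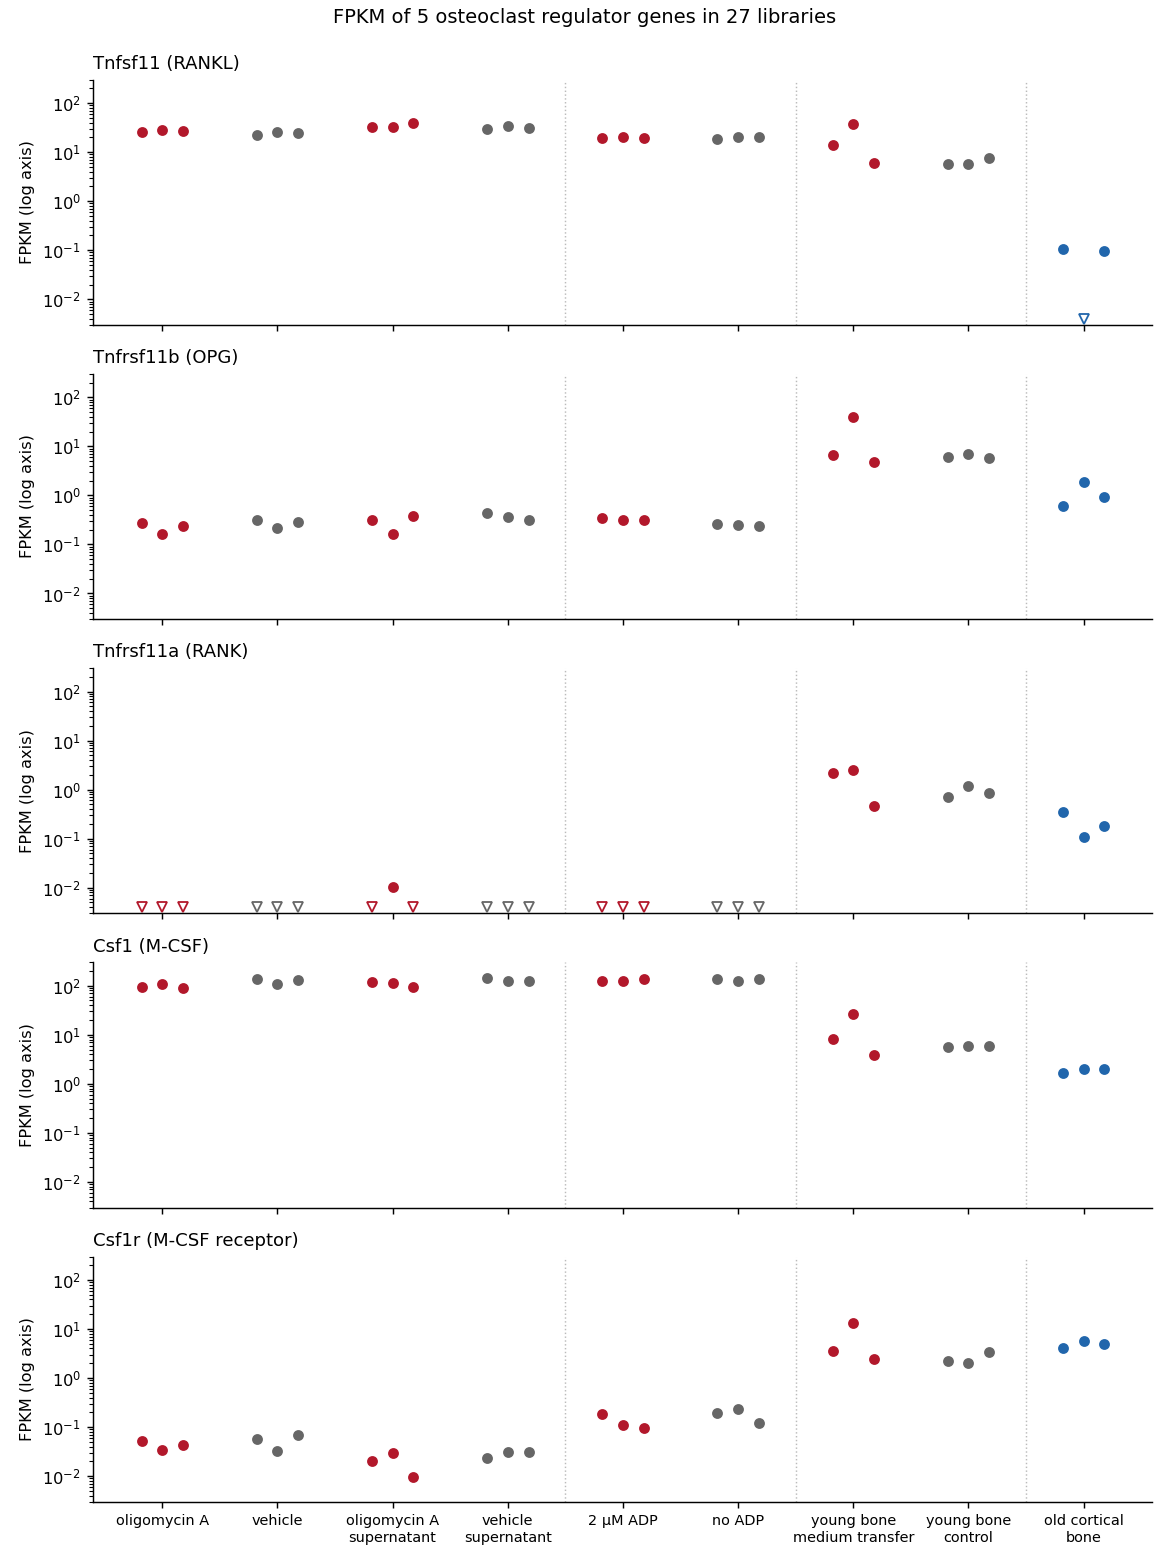
FPKM (log axis) of the 5 genes in each of 27 libraries, by group, with dotted lines between tables and open triangles for libraries listed at 0. Tnfsf11 and Csf1 are high and Tnfrsf11a is listed at 0 in 17 of 18 MLO-Y4 libraries, while all 5 genes are above 0 in the 6 young bone libraries.

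Markers of the cells that carry these receptors also differed between the groups. The 11 monocyte and macrophage markers summed to 5984 to 6835 FPKM in old bone, with 10 of 11 averaging at least 1 FPKM, to 107 to 814 in young bone with medium transfer (9 of 11), to 181 to 203 in young bone controls (7 of 11) and to 19.9 to 40.4 in MLO-Y4 cells (2 of 11), where Cd14 made up most of the sum. The 9 osteoclast markers summed to 808 to 4992 FPKM in medium transfer libraries, 703 to 874 in controls, 291 to 354 in old bone and 10.8 to 22.1 in MLO-Y4 cells. The 7 osteocyte markers summed to 45.9 to 211 FPKM in old bone, 292 to 1734 in medium transfer libraries and 451 to 1021 in controls. Old bone thus had the highest monocyte and macrophage sums, of which Lyz2 made up most, at 4471 FPKM on average. Cd68, Cd14 and Mertk averaged lower there than with medium transfer (Cd14 10.2 against 14.3 FPKM, Mertk 0.620 against 0.944). The other markers of that list averaged higher. The 6 neutrophil markers summed to 97551 to 102907 FPKM in old bone, 375 to 1385 with medium transfer and 298 to 523 in young controls. Csf1r was at 4.88 ± 0.742 FPKM in old bone, 6.37 ± 5.77 with medium transfer and 2.53 ± 0.781 in young controls (SD, n = 3 each). Old bone had the lowest mean Tnfrsf11a of the 3 bone groups. The part of these markers in the members' levels was not tested.

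The ratio of Tnfsf11 to Tnfrsf11b within a library does not depend on how that library was scaled. It lay between 55.2 and 197 in the 18 MLO-Y4 libraries, between 0.816 and 2.14 in the 6 young bone libraries, and was 0.176 and 0.106 in the 2 old bone libraries where both genes were above 0. These 3 ranges did not overlap, and no test was made across the tables. The 2 old bone values rest on Tnfsf11 at 0.105 and 0.0981 FPKM. With 0.1 added to both genes the old bone mean was 0.244. Within MLO-Y4 cells the ratio was 126 ± 42.7 with oligomycin A and 91.8 ± 25.0 with vehicle (SD, n = 3 each), and the libraries overlapped. It was 133 ± 54.9 in recipients of oligomycin A supernatant and 87.2 ± 17.9 in recipients of vehicle supernatant (SD, n = 3 each). Here the recipients of oligomycin A supernatant had 102, 197 and 101, all above the 66.5, 97.2 and 97.8 of the others. With ADP it was 55.2, 66.1 and 62.2, all below the 73.3, 83.2 and 84.3 without ADP. In 3 against 3 libraries the smallest p of a two-sided exact permutation test is 0.1, and no test was made of these ratios. Their denominators are under 0.5 FPKM in every MLO-Y4 library. How often other gene pairs separate in this way in these comparisons was not computed.

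**Figure D2:**
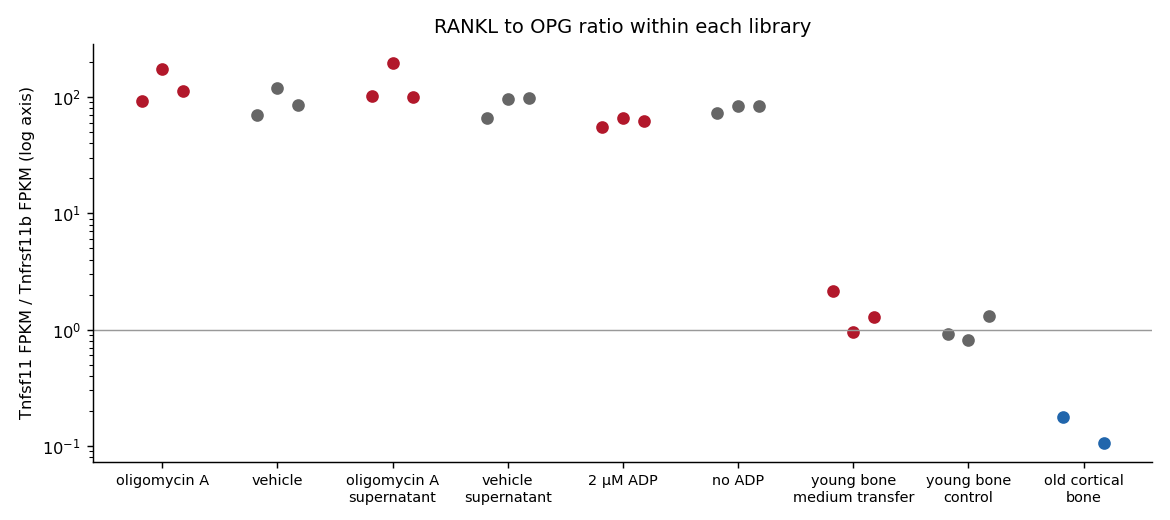
Tnfsf11 FPKM divided by Tnfrsf11b FPKM in each library (log axis), by group, with a line at equal levels. MLO-Y4 libraries lie between 55.2 and 197, young bone between 0.816 and 2.14, and the 2 old bone libraries with both genes above 0 at 0.176 and 0.106.

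Oligomycin A treatment asks what blocking the ATP synthase does to the cells that make these ligands, and neither ligand passed the test after 1 h. Csf1 had 94.2, 110.1 and 89.9 FPKM with oligomycin A, against 139, 109 and 132 FPKM with vehicle. As deposited the 2 groups overlapped through 1 library, vehicle replicate 2, which is the library with the high AY036118 share. After median-of-ratios scaling they did not overlap, with vehicle replicate 2 at 116.5 and oligomycin A replicate 2 at 111.6. The share of all genes that separate on that scale was not computed. The log2 fold change of FPKM + 1 was -0.36 ± 0.12 (SE; 95% interval -0.62 to -0.11; limma adjusted p = 0.0934, as for all adjusted p below over all genes tested). Without vehicle replicate 2 it was -0.47 with a limma adjusted p of 0.0424, and when the libraries were also rescaled by the median of ratios, an alternative added after seeing the data, it was -0.42 with 0.0803. With all libraries kept, it was -0.36 with a limma adjusted p of 0.0629 by the median of ratios, and -0.21 with 0.542 rescaled to one total. Over the 14 alternatives the adjusted p lay between 0.0424 and 0.542, with the change negative in every one.

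Tnfsf11 had 25.6, 28.6 and 27.2 FPKM with oligomycin A, against 22.7, 25.3 and 24.9 with vehicle. As deposited the groups did not overlap, which in this comparison held, in the higher direction, for 16.8% of the tested genes. After median-of-ratios scaling they did overlap, with vehicle replicate 2 at 27.1 and oligomycin A replicate 1 at 25.7. Its log2 fold change was 0.16 ± 0.09 (SE; 95% interval -0.03 to 0.34; limma adjusted p = 0.313). The 2 ligands therefore had fold changes of opposite sign, and the ratio of Tnfsf11 to Csf1 was 0.278 ± 0.022 with oligomycin A and 0.195 ± 0.035 with vehicle (SD, n = 3 each). The count of members called was 0 of the 2 tested, in a comparison where 5.34% of 11902 genes were called. The other 3 members averaged under 1 FPKM and were left out of the test. Of these, Tnfrsf11b had 0.279, 0.165 and 0.243 FPKM with oligomycin A, against 0.320, 0.212 and 0.291 with vehicle, and the groups overlapped.

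Some genes that act upstream of RANKL and downstream of RANK did pass in the same cells. The gene lists, here and below, were chosen with earlier results of these data known. Their counts and medians beside those of all genes are therefore given as a description. Of 18 measured genes known to control RANKL and OPG transcription, of 22 listed, 4 rose and 0 fell, with a median log2 fold change of 0.15 against -0.0037 for all genes, of which 3.71% were called as higher. They were Ptgs2, the inducible cyclooxygenase that makes prostaglandins (1.09 ± 0.07, SE; limma adjusted p = 2.03e-06), the cytokine gene Il6 (0.82), the oncostatin M receptor gene Osmr (0.40) and Runx2, an osteoblast transcription factor (0.38). Of 21 genes of the signalling below RANK and the M-CSF receptor, 4 rose and 0 fell, with a median of 0.14. These were Fos, a subunit of AP-1 (3.73), Map3k14, the kinase of the alternative NF-kB pathway (0.78), the adaptor gene Traf2 (0.42) and Pik3r1, a regulatory subunit of phosphoinositide 3-kinase (0.31). All 4 genes of each list kept their sign under the 14 alternatives run, but the call of Runx2 held under 5 of them and that of Pik3r1 under 10. Runx2 was lost without vehicle replicate 1 or 2 or without any 1 of the 3 oligomycin A libraries, and Pik3r1 without oligomycin A replicate 2 or 3. Most genes of the second list work in many pathways besides those of RANK and the M-CSF receptor, whose own transcripts were at trace levels here. Of 6 genes of RANKL shedding and trafficking and 4 other ligands and receptors of these axes, 0 passed in this comparison.

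Tnfsf11 averaged 34.6 ± 3.89 FPKM with oligomycin A supernatant, 31.9 ± 2.62 with vehicle supernatant, 27.2 ± 1.48 with oligomycin A and 24.3 ± 1.40 with vehicle (SD, n = 3 each), from the highest group to the lowest. The 2 supernatant groups overlapped each other, and every one of their 6 libraries was above all 6 of the other groups, as for 8.02% of the tested genes. Csf1 averaged 98.1 ± 10.6 FPKM with oligomycin A and 127 ± 16.0 with vehicle, and 108 ± 12.2 with oligomycin A supernatant and 132 ± 11.4 with vehicle supernatant (SD, n = 3 each). For Csf1 the 2 groups exposed to oligomycin A or its supernatant overlapped each other, as did the 2 vehicle groups.

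**Figure D3:**
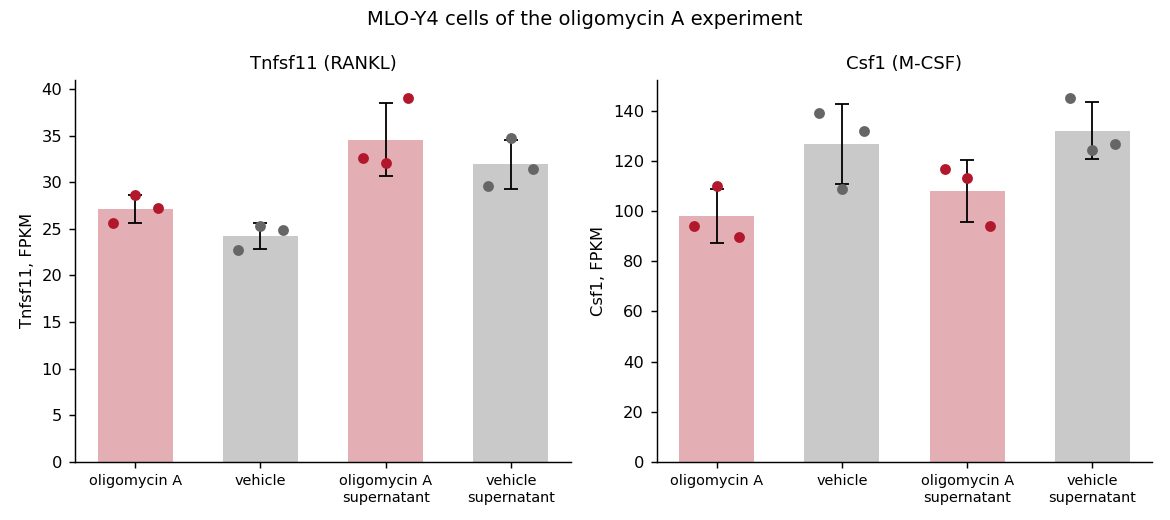
FPKM of Tnfsf11 and Csf1 in the 4 groups of the oligomycin A experiment; points are libraries, bars are means and error bars are SD (n = 3 each). Tnfsf11 is highest in the 2 supernatant groups, and Csf1 is lowest in the 2 oligomycin A groups, with vehicle replicate 2 at 109 FPKM.

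The recipients of supernatant address whether medium taken from oligomycin A-treated cells alters the ligands of other cells, and again neither passed. The inhibitor was added to that medium and no label states that it was removed, so carried-over oligomycin A and products of the treated cells cannot be told apart. Csf1 had 117, 113 and 94.1 FPKM with oligomycin A supernatant, against 145, 125 and 127 with vehicle supernatant. The groups did not overlap, as for 6.49% of tested genes in the lower direction. The log2 fold change was -0.29 ± 0.12 (SE; 95% interval -0.54 to -0.04; limma adjusted p = 0.520). Tnfsf11 had 32.6, 32.1 and 39.1 FPKM with oligomycin A supernatant, against 29.6, 34.8 and 31.4 with vehicle supernatant, with overlapping groups and a log2 fold change of 0.11 ± 0.09 (SE; 95% interval -0.08 to 0.30; limma adjusted p = 0.862). Of the members, 0 of 2 tested were called, where 0.386% of genes were.

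Each ligand's response in recipients could not be told from that of cells given the inhibitor. The recipient response minus the direct response was 0.07 ± 0.16 on the log2 scale for Csf1 (SE; 95% interval -0.29 to 0.43; limma adjusted p = 0.915) and -0.05 ± 0.12 for Tnfsf11 (SE; 95% interval -0.31 to 0.22; limma adjusted p = 0.929). In this test of the difference 0 of 2 members were called, with 0.445% of all genes called. In recipients 1 of the 18 regulators of RANKL and OPG transcription rose, Ptgs2 (0.51). Of the 21 genes of signalling below the receptors 1 rose, Fos (0.99), where 0.277% of all genes were called as higher. Of 13 alternatives the call of Fos held under 12 and that of Ptgs2 under 11: both were lost in the fit of 6 libraries (limma adjusted p = 0.166 for Fos), and Ptgs2 also with one total. The difference itself was negative and passed for 2 of the 18 regulators, Ptgs2 (-0.58) and Osmr (-0.42). The same held for 2 of the 21 signalling genes, Fos (-2.74) and Map3k14 (-0.86). In that direction 0.361% of all genes were called. These 4 genes thus had the lower log2 fold change in recipients, where Osmr and Map3k14 were not called. The call of the difference held under all 19 alternatives for Fos and Map3k14, under 13 for Ptgs2 and under 9 for Osmr. That of Ptgs2 was lost without vehicle replicate 1 or any 1 of the 3 oligomycin A libraries, and that of Osmr without any 1 of 8 of the 12 libraries.

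Tnfsf11 rose in cells given vehicle supernatant relative to cells given vehicle directly, the 1 call among the members in any comparison. It had 29.6, 34.8 and 31.4 FPKM with vehicle supernatant, against 22.7, 25.3 and 24.9 with vehicle, and the lowest recipient library was above the highest vehicle library. The log2 fold change was 0.38 ± 0.09 (SE; 95% interval 0.19 to 0.57), or 1.30-fold, with a limma adjusted p of 0.0142. It was called under all 14 alternatives run, with adjusted p from 0.0116 to 0.0499. Changes were common in this comparison: 14.7% of genes were called, 9.49% as higher, and in 21.6% all vehicle supernatant libraries were above all vehicle libraries. The recipients were kept for 2 h in conditioned medium and the vehicle cells for 1 h in vehicle, so medium, time and handling cannot be told apart.

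Csf1 had 145, 125 and 127 FPKM with vehicle supernatant, against 139, 109 and 132 with vehicle, so the groups overlapped. Its log2 fold change was 0.06 ± 0.12 (SE; 95% interval -0.19 to 0.32; limma adjusted p = 0.751), and 1 of the 2 tested members was therefore called. Tnfrsf11b had 0.445, 0.358 and 0.321 FPKM with vehicle supernatant, against 0.320, 0.212 and 0.291 with vehicle. All 3 recipient libraries were above the others, as for 8.52% of genes between 0.1 and 1 FPKM; in the fit of all genes without a filter its log2 fold change was 0.11 ± 0.07 (SE; limma adjusted p = 0.512).

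Genes of all 4 lists were called in that comparison, where 9.49% of all genes were called as higher and 5.18% as lower. Of the 18 regulators of RANKL and OPG transcription, 3 rose and 1 fell. Il6 (0.70), Il11 (0.66) and Lif (0.56), cytokines of the gp130 family, rose, and Ptger4, a prostaglandin E2 receptor, fell by 0.60 on the log2 scale; the median of the 18 was -0.0026 against 0.03 for all genes. Of 6 genes of RANKL shedding and trafficking, the proteases Adam19 (0.82) and Mmp3 (0.26) rose, with a median of 0.12. Of 4 other ligands and receptors, the syndecan gene Sdc1 (0.41) rose. Below the receptors 2 of 21 genes rose, a share near that of all genes, and 3 fell. Nfkb1 (0.40) and Pik3r1 (0.22) rose, while Fos (-2.31), Map3k14 (-0.39) and Traf6, the main adaptor of RANK (-0.32), fell, with a median of 0.02. The calls of Adam19, Il6, Il11, Sdc1, Nfkb1 and Fos held under all 14 alternatives, while those of Ptger4 and Map3k14 held under 13, that of Lif under 11, that of Pik3r1 under 4 and that of Mmp3 under 2. Ptger4, Map3k14 and Traf6 were lost when rescaled to one total, and Traf6, called under 11 of the 13 alternatives in which it was tested, also in the fit of 6 libraries. Lif was lost without vehicle replicate 2 or vehicle supernatant replicate 1, Mmp3 without any 1 of the 6 libraries, and Pik3r1 without any 1 of them but vehicle replicate 1. Marker sums moved as well: the osteocyte list summed to 354 to 363 FPKM with vehicle supernatant, against 256 to 292 with vehicle, and the monocyte and macrophage list to 27.5 to 33.8, against 19.9 to 20.7. In the first list Pdpn made up most of the sum, at 269 FPKM on average with vehicle supernatant and 195 with vehicle. Cd44 had 79.4 and 73.7 and Phex 11.6 and 8.62, while Dmp1, Sost, Mepe and Fgf23 were at or near 0. In the second list Cd14 had 30.0 FPKM on average with vehicle supernatant and 17.4 with vehicle, while Adgre1, Itgam and Tyrobp were listed at 0. Their part in the change of Tnfsf11 was not tested.

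**Figure D4:**
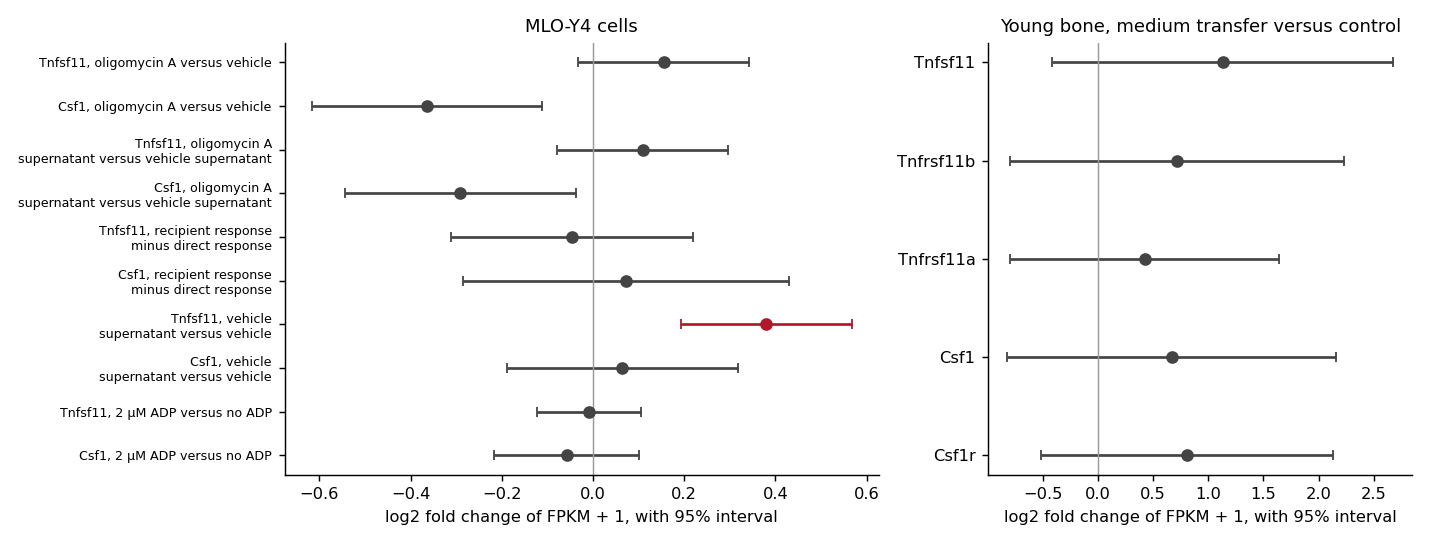
Log2 fold changes of FPKM + 1 with 95% intervals (bars) for the tested members, in MLO-Y4 cells on the left and in young bone on the right, where the axis is wider. The interval of Tnfsf11 in vehicle supernatant versus vehicle, 0.19 to 0.57 (red), is the 1 that passed at an adjusted p under 0.05; those of young bone all include 0.

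Across the 12 libraries of this experiment the 2 ligands did not run together (Pearson r = -0.19 between their log2 values). The genes whose values were most like Tnfsf11, out of 6592 with a mean of at least 5 FPKM, were Hccs (r = 0.95), Mmp3 (0.94), Nup35 (0.94), Cd14 (0.94) and Tbx18 (0.92). Those most like Csf1 were Eaf1 (0.95), Syngr2, Mob3a (0.87 each), Tatdn2 and Ap1m1 (0.86 each). Mmp3 is a matrix metalloproteinase and Cd14 a receptor for bacterial lipopolysaccharide. The libraries share 4 groups, so these values follow the group means as well as the spread within groups, and are given as a description.

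ADP at 2 µM left the ligands within narrow intervals. Tnfsf11 had 19.3, 20.8 and 19.3 FPKM with ADP, against 18.9, 20.6 and 20.3 without, and the log2 fold change was -0.0083 ± 0.047 (SE; 95% interval -0.12 to 0.11; limma adjusted p = 0.993). Csf1 had 123, 123 and 138 FPKM with ADP, against 139, 123 and 138 without, with a log2 fold change of -0.06 ± 0.07 (SE; 95% interval -0.22 to 0.10; limma adjusted p = 0.918). Both pairs of groups overlapped. Of the members, 0 of 2 tested were called, against 7 of 11604 genes (0.0603%), or 678 genes at an unadjusted p under 0.05, so few genes passed in this comparison at all.

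The decoy receptor was the only member whose ADP groups did not overlap, and its change did not pass. Tnfrsf11b had 0.349, 0.314 and 0.310 FPKM with ADP, against 0.257, 0.247 and 0.241 without. All 3 libraries with ADP were above all 3 without, as for 5.50% of genes between 0.1 and 1 FPKM. In the fit of all genes without a filter its log2 fold change was 0.085 ± 0.027 on the FPKM + 1 scale, which understates changes at this level, and its limma adjusted p was 0.880. Csf1r had 0.131 ± 0.049 FPKM with ADP and 0.180 ± 0.056 without (SD, n = 3 each), and its libraries overlapped. Of the 4 lists of regulators, 0 genes passed.

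In young bone all 5 members had positive log2 fold changes with medium transfer and 0 passed, where 4 of 16438 genes (0.0243%) did and 368 had an unadjusted p under 0.05. Tnfsf11 had 14.1, 37.1 and 6.11 FPKM with medium transfer, against 5.72, 5.71 and 7.63 in controls, and the groups overlapped. Tnfrsf11b had 6.58, 38.9 and 4.78 FPKM with medium transfer, against 6.20, 7.01 and 5.84 in controls. In both genes the high value came from library 2, the one with a small share of the 4 predicted genes.

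Csf1 had 8.23, 26.5 and 3.91 FPKM with medium transfer, against 5.60, 5.98 and 5.77 in controls. Csf1r had 3.63, 13.0 and 2.48 FPKM with medium transfer, against 2.18, 1.99 and 3.42 in controls. Tnfrsf11a had 2.22, 2.50 and 0.460 FPKM with medium transfer, against 0.716, 1.16 and 0.846 in controls. In all 5 genes, as deposited, medium transfer library 2 was the highest, library 1 was above every control in all but Tnfrsf11b, and library 3 was among or below the controls. After median-of-ratios scaling library 2 stayed the highest, but library 1 was below every control in all but Tnfrsf11a. Library 3 was then among or above the controls in all but that gene. Scaled Tnfsf11 was 6.91 in library 1 and 10.1 in library 3, against 7.20 to 7.46 in controls.

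The log2 fold change was 1.13 ± 0.79 for Tnfsf11 (SE; 95% interval -0.41 to 2.68), 0.72 ± 0.77 for Tnfrsf11b (-0.80 to 2.23), 0.42 ± 0.62 for Tnfrsf11a (-0.80 to 1.64), 0.67 ± 0.76 for Csf1 (-0.82 to 2.16) and 0.81 ± 0.67 for Csf1r (-0.51 to 2.13), each with a limma adjusted p of 0.900. The median over all genes was 0.45 on the same scale. Rescaled by the median of ratios, which brought that median to 0.07, the members' values were 0.65, 0.26, 0.06, 0.19 and 0.41 in the same order. Rescaled to one total they lay between 0.77 and 1.58, with a median of 0.78 over all genes. Omission of single libraries moved the log2 value of every member by over 1.5 times. Without medium transfer library 2, Tnfsf11 was at 0.50, Tnfrsf11b at -0.15, Tnfrsf11a at 0.19, Csf1 at -0.011 and Csf1r at 0.21, and without medium transfer library 3 they were at 1.72, 1.25, 0.82, 1.23 and 1.21 in the same order. With both changes, chosen after seeing the data, Tnfsf11 was at 0.17, Tnfrsf11b at -0.44, Csf1 at -0.33 and Csf1r at -0.033. All 5 intervals include 0 and are wide, so these 6 libraries limit what can be said of any member.

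**Figure D5:**
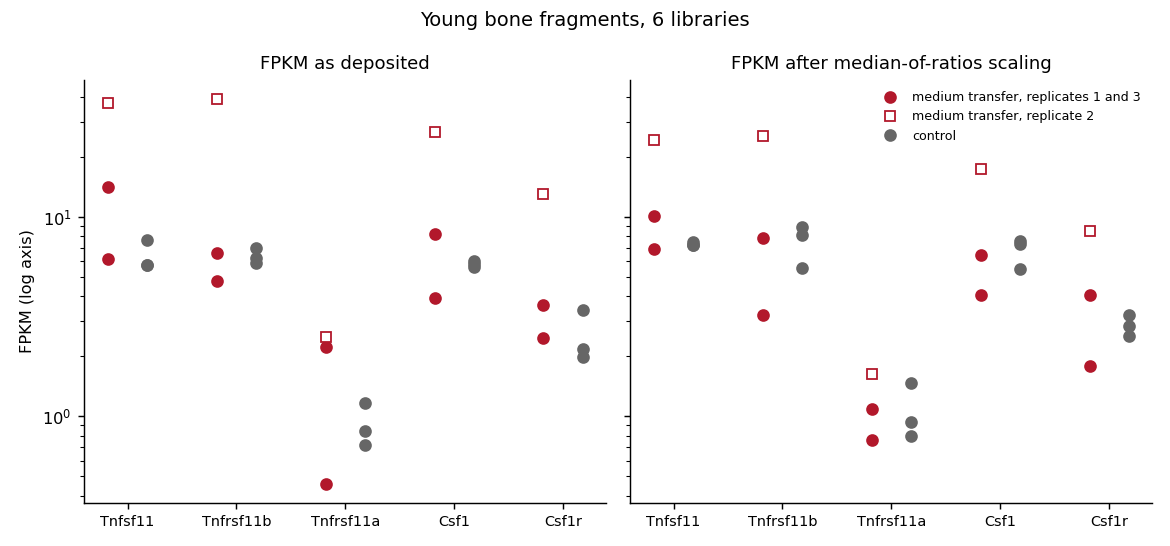
FPKM (log axis) of the 5 genes in the 6 young bone libraries, as deposited (left) and after median-of-ratios scaling (right); open squares are medium transfer library 2. That library is the highest for every gene on both scales, at 37.1 FPKM for Tnfsf11 as deposited, against 5.71 to 7.63 in the controls.

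Ratios between members within a library do not depend on that scaling. The ratio of Tnfsf11 to Tnfrsf11b was 2.14, 0.953 and 1.28 with medium transfer, against 0.922, 0.816 and 1.31 in controls, and the groups overlapped. The ratio of Tnfsf11 to Csf1 was 1.71, 1.40 and 1.57 with medium transfer, against 1.02, 0.956 and 1.32 in controls, so all 3 medium transfer libraries were above the controls. That of Csf1 to Csf1r was 2.27, 2.04 and 1.58 with medium transfer, against 2.57, 3.01 and 1.69 in controls, and overlapped. No test was made of these ratios, and the share of other gene pairs that separate in this way was not computed. Of the 4 lists of regulators, 0 genes passed, with medians of 0.25 to 0.60 against 0.45 for all genes. Among marker lists, the osteoclast markers summed to 808 to 4992 FPKM with medium transfer, against 703 to 874 in controls, the osteoblast markers to 18612 to 106458, against 25436 to 42246, and the marrow stroma and adipocyte markers to 14.1 to 96.6, against 5.00 to 6.79. These sums are of FPKM as deposited and, unlike the ratios, depend on the scaling of each library. Spp1 made up most of the osteoblast sums, at 54470 FPKM on average with medium transfer and 34580 in controls. In the marrow stroma and adipocyte list Cfd had 0 to 84.8 FPKM with medium transfer, against 0 to 0.360 in controls. Fabp4 of that list had 8.36 to 9.83, against 3.26 to 3.55. The part of these markers in the members' values was not tested.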

How the data were processed

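Poly(A)-selected RNA was sequenced, per the labels' protocols, and the authors deposited gene-level FPKM in 4 tables with a tool not given in the sources used here. HTSeq and mm10 appear, with no stated role, in the submitters' processing notes. FPKM are not counts. Depths were scanned for each library, and at the depth picked 25.3% to 49.1% of low values lay within 0.1 of a whole fragment. Counts were thus not recovered, the count test the design allowed for was not run, and the depth is unknown. Values of 27 of 48 samples (9 of 16 groups) were used; the other 21, with 1 µM ADP and shRNA knockdowns, were not analysed here. Groups follow the titles, and the oligomycin A concentration follows the protocol, since the label gives that of the 50 mM stock.

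Log2(FPKM + 1) was tested with limma 3.58.1 in R 4.3.3 (trended prior) within a table, on genes with a mean of at least 1 FPKM, with Benjamini-Hochberg adjustment over all of them and a threshold of 0.05; the 4 oligomycin A groups shared 1 fit. Fold changes on this scale understate those of low genes. The fit was tested on simulated data. The 5 members were named in every comparison, and of each of 4 gene lists the called genes, up to 4 by p. Of 5 genes called in 1 list in the vehicle supernatant comparison, the fifth, Pik3r1, was named after its value was seen. Members and lists were chosen with earlier results of these data known. GENCODE M21 held 55154 of the IDs. RefSeq promoter entries were used for 3 of the 5 members, 2 of which are printed. No 2 libraries shared more than 0.0210% of their values.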

Additional observations from a re-analysis of the deposited data

How the results depend on the processing

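The alternatives were pseudocount 0.1, no filter or one at 5 FPKM, scaling to one total or by the median of ratios, a replicate block, fits of 6 libraries and the omission of each library; those joining median-of-ratios scaling with an omission, and the transfer ratio without library 2, were chosen after seeing the data. No member changed its call in any of them except Csf1 in oligomycin A versus vehicle, where omission of single libraries gave 0 to 1 members called. With one total, the median log2 fold change over all genes was 0.12 with oligomycin A, 0.14 with vehicle supernatant, -0.12 for recipient minus direct response and 0.78 in young bone. FPKM without depth give no counting error, and low members such as Tnfrsf11b in MLO-Y4 cells could not be tested as counts.

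Signs changed only for differences near 0 or in young bone; the cause was not tested. Recipient minus direct response was -0.062 for Csf1 with one total. For Tnfsf11 it was 0.015 and 0.0028 without vehicle supernatant or oligomycin A supernatant replicate 2, and -0.13 to 0.015 over all omissions. Vehicle supernatant versus vehicle for Csf1 was -0.041 without vehicle replicate 2, -0.022 with median-of-ratios scaling as well, -0.0046 without vehicle supernatant replicate 1, and up to 0.14 without another library. With ADP, Tnfsf11 was 0.015 and 0.0052 without no ADP replicate 2 or 3, and 0.0091 and 0.0078 without ADP replicate 1 or 3, the range over all omissions being -0.045 to 0.015. Without medium transfer library 2, Tnfrsf11b was -0.15 and Csf1 -0.011, and with median-of-ratios scaling as well -0.44 and -0.33, with Csf1r at -0.033. Omission of another library gave up to 1.25 for Tnfrsf11b and 1.23 for Csf1.

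Genes called with oligomycin A were 636, and 386 without a filter, 276 with one total (257 higher, 19 lower), 1168 by median of ratios (762 higher, 406 lower), 412 in the fit of 6 libraries and 265 to 652 without single libraries. In recipients they were 46, and 23, 17, 77, 7 and 22 to 59 in the same order. For the difference they were 53, and 31 with one total, 100 by median of ratios and 35 to 70 without single libraries. With vehicle supernatant they were 1746 (1129 higher, 617 lower), and 587 with one total (485 higher, 102 lower), 829 in the fit of 6 libraries, 2206 by median of ratios (1179 higher, 1027 lower) and 1002 to 1359 without single libraries. With ADP they were 7, and 0 without a filter, 1 at 5 FPKM and 0 to 40 without single libraries. In young bone they were 4, and 0 without a filter, 1 at 5 FPKM, 2 with one total, 0 by median of ratios with or without library 2, and 0 to 7 without single libraries.

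Same-numbered libraries did not deviate together (correlations of -0.228 to 0.0587), so the numbers were not taken to pair them. With the replicate block, 434 genes were called with oligomycin A, 28 in recipients, 35 for the difference, 1460 with vehicle supernatant, 0 with ADP and 2 in young bone, and no member's call changed.

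With 0.1 added to both FPKM, the ratio of Tnfsf11 to Tnfrsf11b was 85.3 with oligomycin A and 93.6 with its supernatant. It was 66.5 with vehicle, 68.5 with vehicle supernatant, 46.9 with ADP, 57.5 without ADP and 0.244 in old bone. Without library 2 the transfer ratio was 1.71.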
